A study of Glycyrrhiza uralensis with 12 samples.

Results

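The 2 genes described here, *Glyur000018s00003759* and *Glyur000231s00022077*, are those that the study's list of carbohydrate genes names TPS, trehalose 6-phosphate synthase/phosphatase. They were taken by identifier from that list, are 2 of the 29436 genes in the gene table, and were measured in all 12 libraries. Seedlings of *Glycyrrhiza uralensis* (licorice) were grown in sterilized sand and taken at an age of 45 days from 4 treatments with 3 libraries each. The salt stress group combined with G2 (S + G2) received 75 mM NaCl and the endophytic bacterium *Bacillus cereus* G2 at 100000000 cfu/ml, the salt stress group (S) received 75 mM NaCl alone, the control combined with G2 (CK + G2) received the bacterium alone, and the control (CK) received water. Seedlings were ground and grouped by weight into the RNA samples, so each value is a mean over the tissues and plants of a sample, and fewer cells of a type and less RNA per cell cannot be told apart. Full-length cDNA was sequenced with Oxford Nanopore chemistry, and a level is given in CPM, the reads on a gene per 1000000 mapped reads of the library. Between 3303591 and 3929023 reads lay behind each library, and CK replicate 1 and CK + G2 replicates 2 and 3 stood apart in Rubisco, the carbon-fixing enzyme of green tissue, at 7645 to 10287 CPM over both listed genes, against 14731 to 33724 CPM in the other 9 libraries.

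Trehalose is a disaccharide of 2 glucose units. Its synthesis passes through trehalose 6-phosphate, which TPS makes from UDP-glucose and glucose 6-phosphate and a phosphatase then turns into trehalose. In most plants trehalose itself is scarce, and trehalose 6-phosphate is known as a signal of sucrose status that acts on growth, starch breakdown and sugar transport. In *Arabidopsis*, one class of TPS proteins holds active synthases, whose genes have many exons. Another class has little or no synthase activity, and its genes have few exons. The annotation used here gives neither class nor function, and the name TPS comes from the study's list alone.

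The TPS genes have unlike structures in the deposited annotation. *Glyur000018s00003759* lies on Scaffold00018 from 596594 to 614997 on the plus strand, a span of 18404 bases. Its longer annotated transcript has 18 exons, more than 97.1% of the 36475 annotated mRNAs have, and 17 of these carry coding sequence. That coding sequence is 2766 bases long, or 921 codons before the stop, and follows a 5′ untranslated stretch of 204 bases. The first intron is the longest, at 8484 bases, and no 3′ untranslated sequence is annotated. A second annotated transcript has 2 exons and a coding sequence of 78 codons, part of which lies outside its own exons. *Glyur000231s00022077* lies on Scaffold00231 from 173559 to 177086 on the minus strand, a span of 3528 bases. It has 3 exons, a coding sequence of 2610 bases or 869 codons, and introns of 94 and 128 bases. The longest exon holds 2326 of its 3306 exonic bases, and untranslated stretches of 323 and 373 bases stand at the 5′ and 3′ ends. The 5′ end of *Glyur000231s00022077* overlaps *Glyur000231s00022078*, annotated on the plus strand, over 129 bases. The treatment of strand in counting was not given in the sources used here, so reads from that overlap cannot be told apart, and no value of the neighbour was used.

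**Figure D1:**
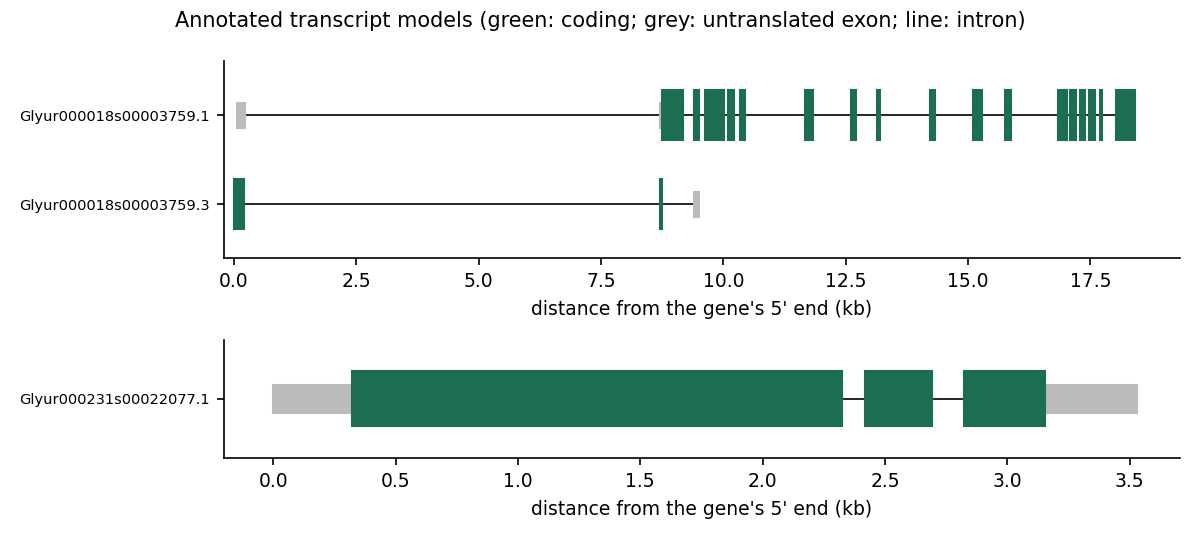
Annotated transcript models of both TPS genes, drawn from the 5′ end of each gene to the right, with the distance in kb. Green boxes are coding sequence, grey boxes untranslated exon and lines introns; *Glyur000018s00003759* has 18 exons over 18404 bases and *Glyur000231s00022077* has 3 exons over 3528 bases.

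Both TPS genes fell in S vs. CK, *Glyur000018s00003759* to 0.596 and *Glyur000231s00022077* to 0.292 times the CK mean. In S + G2 they averaged 0.976 and 0.358 times the CK mean in the same order. *Glyur000018s00003759* was lowest in S and higher in the other 3 treatments. *Glyur000231s00022077* was highest in CK and low in each of the other 3 treatments, S + G2 and CK + G2 included. Both genes are well read, with mean CPM above those of 85.6% and 82.8% of the genes in the table, with 1887 and 1530 reads over the 12 libraries.

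*Glyur000018s00003759* stood at 45.3, 37.5 and 64.2 CPM in S + G2, at 29.3, 33.7 and 26.7 CPM in S, at 43.5, 37.6 and 43.5 CPM in CK + G2 and at 55.1, 47.1 and 48.4 CPM in CK, from 101 to 248 reads per library. Every S library lay below all 9 others. Of the 22751 genes that reached 1 CPM in 3 or more libraries, 0.945% showed this pattern, which includes the S vs. CK contrast on which the gene was listed. The group means were 49.0 ± 13.7 CPM in S + G2, 29.9 ± 3.55 CPM in S, 41.5 ± 3.38 CPM in CK + G2 and 50.2 ± 4.29 CPM in CK (SD, n = 3 each), so that the descending order was CK, S + G2, CK + G2 and S. Along this order S + G2 and CK overlapped, as did S + G2 and CK + G2, while S and CK + G2 did not. The share of all genes with S and CK + G2 apart was not computed.

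*Glyur000231s00022077* stood at 29.6, 40.6 and 9.32 CPM in S + G2, at 23.5, 16.3 and 24.9 CPM in S, at 21.1, 11.8 and 24.9 CPM in CK + G2 and at 42.0, 74.7 and 105 CPM in CK, from 36 to 348 reads per library. Every CK library lay above all 9 others, by a narrow margin between CK replicate 1 and S + G2 replicate 2. The same pattern held for 2.04% of the 22751 genes, and it too includes the contrast used for the list. The means were 26.5 ± 15.9 CPM in S + G2, 21.6 ± 4.62 CPM in S, 19.3 ± 6.73 CPM in CK + G2 and 74.0 ± 31.7 CPM in CK (SD, n = 3 each), a descending order of CK, S + G2, S and CK + G2. The 3 lower groups overlapped one another.

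The genes differed in how much replicates spread. The coefficient of variation of *Glyur000018s00003759* was 28.1% in S + G2 and 8.14% to 11.9% in S, CK + G2 and CK. That of *Glyur000231s00022077* was 59.9% in S + G2, 21.4% in S, 34.9% in CK + G2 and 42.8% in CK. Counting error alone would give 6.35% to 9.95% per library for the first gene and 5.36% to 16.7% for the second. S + G2 replicate 3 was the highest of the 12 libraries in *Glyur000018s00003759* and the lowest in *Glyur000231s00022077*.

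**Figure D2:**
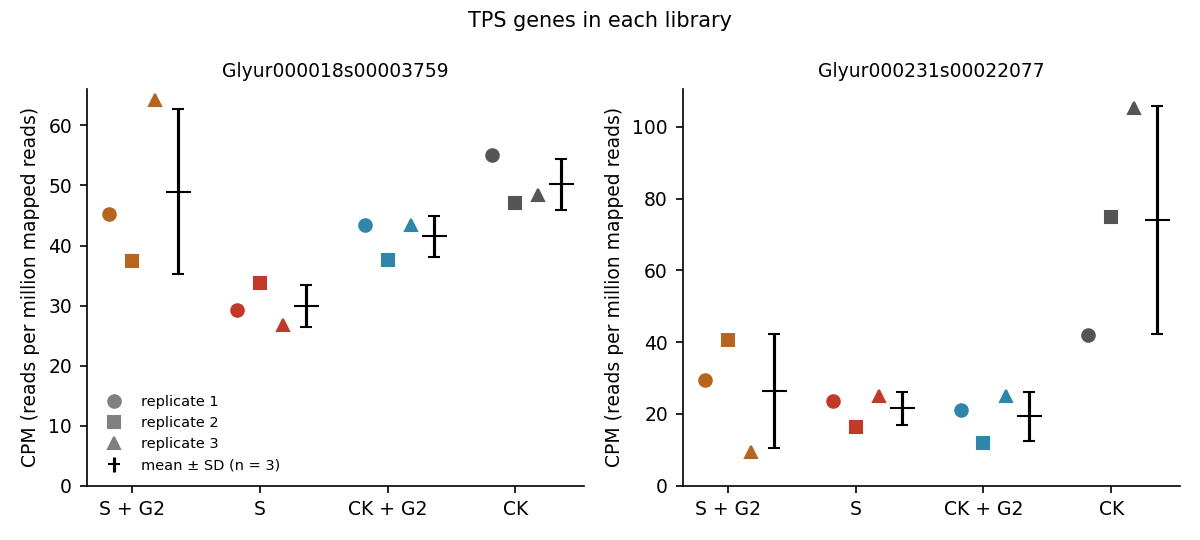
CPM of *Glyur000018s00003759* (left) and *Glyur000231s00022077* (right) in each of the 12 libraries by treatment, with symbols for replicates 1 to 3 and the mean ± SD of each treatment beside them. The S libraries of the left gene, 26.7 to 33.7 CPM, lie below all others, and the CK libraries of the right gene, 42.0 to 105 CPM, lie above all others.

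The S vs. CK comparison asks what salt does without the bacterium. The mean of *Glyur000018s00003759* was 0.596 times that of CK, a log2 fold change of -0.73 on the log2(CPM + 1) scale (SE 0.15, 95% interval -1.07 to -0.39), and limma's adjusted p over the 21543 genes tested was 0.0449. That of *Glyur000231s00022077* was 0.292 times CK, a log2 fold change of -1.66 (SE 0.30, 95% interval -2.33 to -0.99, limma adjusted p = 0.0256). Both genes thus fell, 2 of 2, where 1.58% of all genes tested passed an adjusted p under 0.05 as lower in S. Both also passed an unadjusted p under 0.05 with a fold of at least 1.5, as did 7.09% of genes in that direction, and both had every S library below every CK library, as did 12.8%. The study listed both genes from this contrast on these libraries, so the calls are not independent evidence of a fall.

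Neither call held throughout. For *Glyur000018s00003759* the adjusted p was 0.0535 with edgeR's quasi-likelihood test, 0.0472 with DESeq2, and 0.0691 to 0.126 by limma with any one of the 6 libraries left out. For *Glyur000231s00022077* it was 0.0423 with edgeR and 8.69e-05 with DESeq2, 0.00412 by limma without CK replicate 1, and 0.104 and 0.0747 without CK replicates 2 and 3. It was also 0.0772 and 0.0523 without S replicates 2 and 3. Over these 6 fits the log2 fold change stayed between -0.82 and -0.65 for the first gene and between -2.01 and -1.36 for the second.

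The S + G2 vs. S comparison asks what the bacterium does under salt. *Glyur000018s00003759* had a mean 1.64 times that of S, a log2 fold change of 0.66 (SE 0.21, 95% interval 0.18 to 1.14). Its unadjusted limma p was 0.0123, and over the 21518 genes tested its adjusted p was 0.781. All 3 S + G2 libraries were above all 3 S libraries, as in 5.2% of genes, and the gene passed the unadjusted p with the fold of at least 1.5, as did 1.95% of genes in that direction. At an adjusted p under 0.05, 0.00465% of genes were called. The study also listed this gene from this contrast. Leaving out S + G2 replicate 3, the library with the most reads of the gene, gave a log2 fold change of 0.45 (limma adjusted p = 0.574).

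In the same comparison *Glyur000231s00022077* had a log2 fold change of 0.08 (SE 0.46, 95% interval -0.95 to 1.12, limma adjusted p = 0.990), with overlapping groups. The interval covers changes of about the size seen with salt for the other gene in either direction, so the depth and spread here did not resolve a response. S + G2 replicate 3 decided this value, since without it the log2 fold change was 0.68 (limma adjusted p = 0.484).

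The CK + G2 vs. CK comparison asks what the bacterium does without salt, and the study's list has no entry for it. *Glyur000231s00022077* had a mean 0.260 times that of CK, a log2 fold change of -1.85 (SE 0.35, 95% interval -2.64 to -1.07). Of the 21675 genes tested, 99.8% had a smaller fold change in size. The unadjusted limma p was 0.000393, rank 43 of all genes, but the adjusted p was 0.194, and 0.06% of genes passed at 0.05. DESeq2 gave an adjusted p of 0.000938 and edgeR's test 0.288. Without CK replicate 1 the limma adjusted p was 0.0461 with a log2 fold change of -2.21, and without another of the libraries it was between 0.173 and 0.796. The gene passed the unadjusted p with the fold of at least 1.5, as did 2.83% of genes in that direction, and all CK + G2 libraries lay below all CK libraries, as in 5.25% of genes. CK is shared with the S vs. CK comparison, so a high CK level enters both values.

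*Glyur000018s00003759* differed less between CK + G2 and CK. Its CK + G2 libraries, 37.6 to 43.5 CPM, lay below its CK libraries, 47.1 to 55.1 CPM, as in 5.25% of genes. The log2 fold change was -0.27 (SE 0.16, 95% interval -0.63 to 0.09, limma unadjusted p = 0.125, adjusted p = 0.952).

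Salt in inoculated seedlings, the S + G2 vs. CK + G2 comparison, gave no call for either gene, and 0.0369% of genes were called. The log2 fold change was 0.20 for *Glyur000018s00003759* (95% interval -0.29 to 0.69, limma adjusted p = 0.771) and 0.28 for *Glyur000231s00022077* (95% interval -0.83 to 1.39, adjusted p = 0.873). Against CK, S + G2 seedlings had *Glyur000018s00003759* at 0.976 times the CK mean, with a log2 fold change of -0.07 (95% interval -0.53 to 0.40, limma adjusted p = 0.914). *Glyur000231s00022077* was at 0.358 times CK, with a log2 fold change of -1.57 (95% interval -2.70 to -0.44, limma unadjusted p = 0.0117, adjusted p = 0.191). Without S + G2 replicate 3 that value was -0.98 (adjusted p = 0.186). In that comparison 0.588% of genes were called, 7.75% were lower at the unadjusted p with a fold of at least 1.5, and 13.6% had all S + G2 libraries below all CK libraries, the last 2 of which held for *Glyur000231s00022077*. Between S and CK + G2, where 0.0232% of genes were called, the log2 fold change was -0.46 for *Glyur000018s00003759* (95% interval -0.83 to -0.09, limma unadjusted p = 0.0196, adjusted p = 0.447) and 0.19 for *Glyur000231s00022077* (95% interval -0.45 to 0.83, adjusted p = 0.891). An unadjusted p under 0.05 was reached there by 1965 of the 21582 genes tested.

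**Figure D3:**
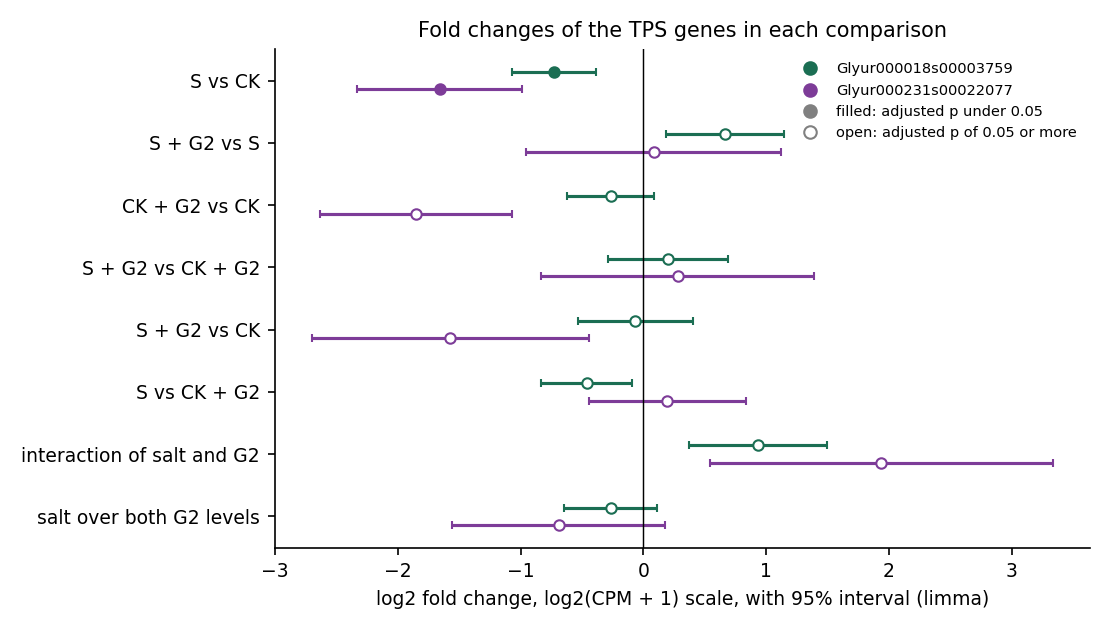
Log2 fold changes of both TPS genes with 95% intervals from limma on the log2(CPM + 1) scale, one row for each comparison, with filled points where the adjusted p over all genes is under 0.05. Only the S vs. CK points are filled; for *Glyur000231s00022077* the 3 comparisons against CK all lie between -1.85 and -1.57.

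The change with salt was then compared between seedlings with and without G2, as an interaction over all 12 libraries. Both genes had a positive value, meaning a more positive change with salt when G2 was present. For *Glyur000018s00003759* it was 0.93 (SE 0.26, 95% interval 0.37 to 1.495, limma unadjusted p = 0.00337, adjusted p = 0.548 over 22751 genes). For *Glyur000231s00022077* it was 1.94 (SE 0.65, 95% interval 0.54 to 3.33, unadjusted p = 0.0102, adjusted p = 0.631). At an unadjusted p under 0.05 the test passed both TPS genes and 6.72% of all genes, and at an adjusted p under 0.05 it passed neither and 0.0044%. Without the 3 libraries lowest in Rubisco the values were 0.80 and 2.11. That fit leaves CK + G2 with replicate 1 alone, so it is a weak check. The size of both values was set in part by the S vs. CK contrast on which the genes were listed. For *Glyur000018s00003759* it was also set in part by S + G2 vs. S, on which the study listed that gene too.

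Neither gene was called when salt was tested over both G2 levels. The 6 salt libraries averaged 39.4 ± 13.8 CPM and the 6 libraries without salt 45.9 ± 5.88 CPM for *Glyur000018s00003759* (SD), a log2 difference of -0.26 (limma adjusted p = 0.455). For *Glyur000231s00022077* they averaged 24.0 ± 10.8 CPM with salt and 46.6 ± 36.3 CPM without salt (SD), a log2 difference of -0.69 (limma adjusted p = 0.389). With labels permuted within each G2 level, the exact two-sided permutation p over 400 arrangements was 0.225 and 0.2. In this test 1.67% of all genes were called. Without S + G2 replicate 3 the value of *Glyur000018s00003759* was -0.41 (limma adjusted p = 0.146). That of *Glyur000231s00022077* was -0.45 without CK replicate 3 (limma adjusted p = 0.580). It was -1.20 without the 3 libraries lowest in Rubisco, a fit in which CK + G2 again keeps replicate 1 alone.

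The balance between the genes was followed as the log2 ratio of *Glyur000018s00003759* to *Glyur000231s00022077* in each library, in which gene length cancels between groups. Reads of the first gene per read of the second were 1.53, 0.922 and 6.89 in S + G2, 1.25, 2.07 and 1.07 in S, 2.06, 3.18 and 1.74 in CK + G2 and 1.31, 0.630 and 0.460 in CK. CK + G2 and CK did not overlap, with mean log2 ratios of 1.17 ± 0.45 and -0.47 ± 0.78 (SD, n = 3 each). Their difference of 1.64 had an exact two-sided permutation p of 0.1, the smallest that 3 libraries against 3 allow. The other 5 comparisons of the ratio had exact permutation p of 0.2 to 0.9, with differences of 0.95 for S against CK, 0.61 for S + G2 against S and 1.56 for S + G2 against CK. The S + G2 values rest heavily on replicate 3, at 6.89 against 1.53 and 0.922 in the others.

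Whether the TPS genes followed each other depended on a single library. Over all 12 libraries the Pearson r of their log2(CPM + 1) was 0.12, and after the treatment means were taken out it was -0.73. Both values rested largely on S + G2 replicate 3. Without that library they were 0.53 and -0.34 over 11 libraries. These are descriptions over libraries that share their depth scaling. Rubisco moved with them to a limited degree, with r of -0.32 for *Glyur000018s00003759* and 0.04 for *Glyur000231s00022077* over the 12 libraries, and -0.37 and 0.51 with treatment means taken out. The fits over 12 libraries are given also without the 3 libraries lowest in Rubisco.

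Most reads of these genes lay on transcripts built by the authors from their reads, each named by a locus of its own. For 14083 of the 14597 annotated genes with reads outside their annotated transcripts (96.5%), that remainder equalled the reads of exactly 1 assembled locus in all 12 libraries, which ties the locus to the gene. By this match *Glyur000018s00003759* took in the assembled transcripts ONT.1135.1 and ONT.1135.3, and *Glyur000231s00022077* took in ONT.7350.2, ONT.7350.3 and ONT.7350.4. The exons of the assembled transcripts were not analysed here.

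*Glyur000018s00003759* was read almost wholly from its 2 assembled transcripts. They held 1879 of its 1887 reads (99.6%), and the annotated transcripts held 8 reads in all. A low annotated share was common, with a median of 13.8% over the 18125 annotated genes with at least 100 reads. Of those genes 17.8% had a lower share than this gene. ONT.1135.1 was the major form and ONT.1135.3 took 31.0% to 33.5% of the gene's reads in S + G2, 20.8% to 29.2% in S, 27.0% to 32.2% in CK + G2 and 26.5% to 36.9% in CK. The S + G2 shares all lay above the S shares, with means of 32.7% ± 1.45 in S + G2 and 23.6% ± 4.79 in S (SD, n = 3 each). The exact two-sided permutation p was 0.1, the smallest possible here, and 0.72 after adjustment over 36 such tests.

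The minor form ONT.1135.3 stood at 11.6 to 21.5 CPM in S + G2, 5.60 to 9.84 CPM in S, 11.8 to 12.1 CPM in CK + G2 and 12.5 to 17.9 CPM in CK. In S every library was lower than in the other treatments. The share of all transcripts with this pattern was not computed. The study listed the gene of this form as lower with salt and as higher with G2 under salt. The low S level of the form is therefore not independent of that listing. The log2 fold change of ONT.1135.3 was -1.04 in S vs. CK (SE 0.26, limma adjusted p = 0.108 over 40300 transcripts) and 1.06 in S + G2 vs. S (SE 0.30, limma unadjusted p = 0.00593, adjusted p = 0.612). Those of ONT.1135.1 were -0.58 (SE 0.18, adjusted p = 0.182) and 0.48 (SE 0.22, adjusted p = 0.837), the second of which was 0.27 without S + G2 replicate 3. The interaction of salt and G2 was 1.40 for ONT.1135.3 (unadjusted p = 0.00185, adjusted p = 0.466) and 0.70 for ONT.1135.1 (unadjusted p = 0.0276, adjusted p = 0.684). A difference between the forms in response was tested only through the shares above.

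*Glyur000231s00022077* divided its reads between its annotated transcript, with 722 of 1530 reads (47.2%), and the 3 assembled ones, with 808. Of the annotated genes with at least 100 reads, 62.3% had a lower annotated share. The annotated transcript spread most within CK. It stood at 3.62 to 14.5 CPM in S + G2, 5.85 to 10.2 CPM in S, 5.52 to 13.7 CPM in CK + G2 and 10.04 to 64.2 CPM in CK. In CK its share was 23.9% in replicate 1 and 57.0% and 60.9% in replicates 2 and 3. The 3 assembled transcripts together stood at 5.69 to 26.1 CPM in S + G2, 8.72 to 19.1 CPM in S and 6.31 to 11.2 CPM in CK + G2, against 31.9 to 41.2 CPM in CK, where they were steadier. The spread of the gene among CK libraries therefore lay mainly in the annotated transcript, and the separation of CK from the other 3 treatments was present in the assembled reads without it.

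With the assembled reads alone, a choice made after seeing the data, the log2 fold change of *Glyur000231s00022077* was -1.35 in S vs. CK (SE 0.26, limma adjusted p = 0.0391) and -1.87 in CK + G2 vs. CK (SE 0.24, unadjusted p = 2.9e-05, adjusted p = 0.0607). With the annotated transcript alone it was -1.86 (SE 0.49, adjusted p = 0.140) and -1.57 (SE 0.51, adjusted p = 0.637). All 4 transcripts were lower on average in S and in CK + G2 than in CK. In S vs. CK their log2 fold changes ran from -1.86 for the annotated form to -0.62 for ONT.7350.4, with a lowest limma adjusted p of 0.0591 for ONT.7350.3. The value of ONT.7350.4 was -1.22 without CK replicate 1, and -0.27 and -0.38 without CK replicates 2 and 3. In CK + G2 vs. CK they ran from -1.98 for ONT.7350.2 (adjusted p = 0.0772) to -1.30 for ONT.7350.4 (adjusted p = 0.763). With all libraries none of the TPS transcripts was called by limma at an adjusted p under 0.05, where 1% of all transcripts were called in S vs. CK, 0.0345% in CK + G2 vs. CK and 0.00996% in S + G2 vs. S. With single libraries left out there were 2 calls in S vs. CK, the annotated form of *Glyur000231s00022077* without CK replicate 1 (log2 fold change -2.62, adjusted p = 0.00495) and ONT.7350.2 without S replicate 3 (-2.14, adjusted p = 0.0397).

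**Figure D4:**
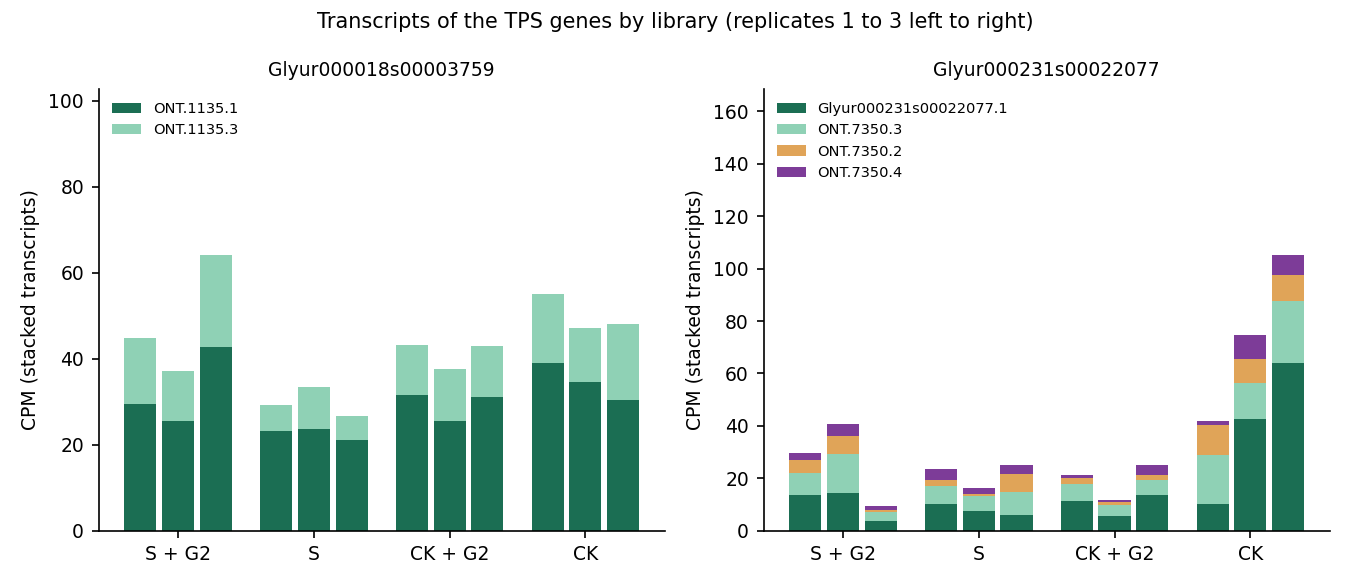
CPM of the transcripts of each TPS gene, stacked, in each of the 12 libraries by treatment, with replicates 1 to 3 from left to right. In the right panel the annotated transcript of *Glyur000231s00022077* makes 10.04 CPM of CK replicate 1 and 64.2 CPM of CK replicate 3, while the assembled transcripts together stay at 31.9 to 41.2 CPM in CK.

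The TPS genes stand in the starch and sucrose part of the study's list with 9 other genes, which encode enzymes that cut or use sugars and starch. In S vs. CK 1 of these 9 rose and 2 fell at an adjusted p under 0.05, where 1.94% of all genes passed in either direction, with a median log2 fold change of 0.01 against -0.05 over all genes tested. In S + G2 vs. S 3 of the 9 passed the unadjusted p with a fold of at least 1.5 as higher, where 1.95% of all genes did, each with an adjusted p above 0.05, with a median of 0.16 against -0.02 over all genes. In CK + G2 vs. CK 1 of the 8 tested fell at an adjusted p under 0.05, where 0.06% of all genes were called, with a median of -0.01 against 0.02. The study chose these 9 from S vs. CK or S + G2 vs. S on the same libraries, so their counts in these 2 comparisons are not independent evidence, and CK + G2 vs. CK shares CK with the first. The gene that rose in S vs. CK was β-glucosidase *Glyur000779s00022830*, which cuts glucose from β-linked substrates. Those that fell were INV *Glyur000064s00005640*, an invertase that splits sucrose, and BM *Glyur000067s00006388*, a β-amylase that releases maltose from starch. The last was also the gene that fell in CK + G2 vs. CK.

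Among the listed genes the 2 for β-amylase (BM) had the highest r with *Glyur000231s00022077* over the 12 libraries. The r with BM *Glyur000067s00006388* was 0.88, rank 36 of 22751 genes, and with BM *Glyur000047s00004005* it was 0.81, rank 115. The study listed all 3 genes as lower in S vs. CK on these libraries, so part of these r follows from the listing. With treatment means taken out the r was 0.75 and 0.53 in the same order. S + G2 replicate 3 was the lowest of the 12 libraries in both *Glyur000231s00022077* (9.32 CPM) and BM *Glyur000067s00006388* (33.9 CPM). How far the 0.75 rests on that library was not tested. With treatment means taken out the listed Rubisco genes had 0.51 and 0.53, and RPI *Glyur004632s00040687*, listed under carbon fixation, had 0.55. The listed β-glucosidase *Glyur000214s00016036* had -0.83, larger in size than the r of either BM gene. BM *Glyur000067s00006388* averaged 72.4 ± 33.4 CPM in S + G2, 59.4 ± 8.28 CPM in S, 74.8 ± 26.2 CPM in CK + G2 and 418 ± 33.8 CPM in CK (SD, n = 3 each). Its CK libraries, 379 to 438 CPM, lay far above the other 9. Its log2 fold change was -2.80 in S vs. CK (limma adjusted p = 0.000105) and -2.52 in CK + G2 vs. CK (adjusted p = 0.0123). BM *Glyur000047s00004005* averaged 10.7 ± 2.17 CPM in S + G2, 15.02 ± 4.86 CPM in S, 10.3 ± 0.905 CPM in CK + G2 and 27.0 ± 5.45 CPM in CK (SD, n = 3 each), with adjusted p of 0.135 in S vs. CK and 0.0865 in CK + G2 vs. CK. The r of the listed genes was noticed after the values were seen.

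**Figure D5:**
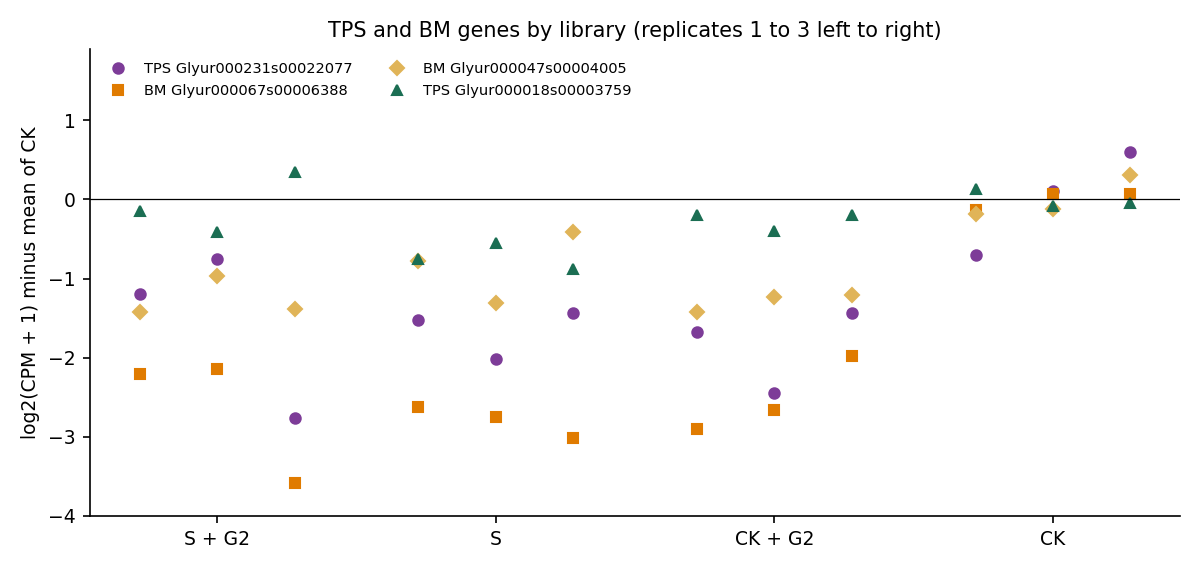
Log2(CPM + 1) minus the mean of CK for both TPS genes and both BM genes in each of the 12 libraries by treatment, with replicates 1 to 3 from left to right. *Glyur000231s00022077* and both BM genes lie below the CK mean in all 9 libraries of S + G2, S and CK + G2, while *Glyur000018s00003759* lies lowest in S.

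Over all genes, the 2 most like *Glyur000231s00022077* were *Glyur000297s00023398* (r = 0.97) and *Glyur000591s00018663* (r = 0.97), with r of 0.96 and 0.94 after treatment means were taken out. In S + G2 these 2 genes ranged from 2.85 to 10.6 CPM and from 17.1 to 61.2 CPM. Their r without S + G2 replicate 3 was not computed. *Glyur000591s00018663* averaged 41.0 CPM in S + G2, 31.9 CPM in S, 35.0 CPM in CK + G2 and 88.0 CPM in CK. The 2 most like *Glyur000018s00003759* were *Glyur000097s00008296* (r = 0.89), a gene of at most 2.83 CPM, and *Glyur001131s00029302* (r = 0.88). *Glyur001131s00029302* averaged 16.0 CPM in S + G2, 11.2 CPM in S, 14.0 CPM in CK + G2 and 17.5 CPM in CK. The files give no function for these 4 genes, and the highest r among 22751 genes is high by selection. The nearest annotated neighbour of *Glyur000018s00003759* with values, *Glyur000018s00003758*, lies 5194 bases before it on the same strand and stood at 6.73 to 11.3 CPM. It did not share the low S level, with means of 7.63 CPM in S + G2, 9.47 CPM in S, 9.01 CPM in CK + G2 and 8.56 CPM in CK. The annotated gene next to *Glyur000231s00022077* on the side of lower coordinates, *Glyur000231s00022075*, lies 34681 bases away on the other strand, with means of 14.9 CPM in S + G2, 13.9 CPM in S, 17.1 CPM in CK + G2 and 23.7 CPM in CK, highest in CK as for that TPS gene.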

How the data were processed

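Full-length cDNA was read in 12 libraries, 3 for each of 4 treatments, which were taken from the sample labels (the labels write the G2 treatment with another letter). The authors filtered reads by length, quality and ribosomal origin, polished those with primers at both ends, mapped these and deposited gene and transcript values in CPM, with a gene annotation. The processing notes name minimap2, and the version of this aligner and the genome build were not given in the sources used here. In the methods the run is by an Illumina sequencer, in the labels by a nanopore instrument. All CPM values above 0 were whole multiples of the value of 1 read (100%, with a tolerance of 0.01), which gave the reads back, 3303591 to 3929023 per library. One read is worth 0.255 to 0.303 CPM, and the counting error of a value is 100% over the square root of its reads.

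Groups were compared with limma 3.58.1 (trend, R 4.3.3) on log2(CPM + 1), keeping genes that reached 1 CPM in 3 or more of the fitted libraries, over the 6 libraries of each comparison, or all 12 for the interaction and for salt over both G2 levels. Adjusted p are Benjamini-Hochberg values over all genes or transcripts tested, called at 0.05, and an unadjusted p under 0.05 with a fold of at least 1.5 is given beside them. Fold changes on this scale understate those of genes with few reads. edgeR 4.0.16 and DESeq2 1.42.0 were run on the recovered reads, and other scalings, filters, pseudocounts, a replicate block, single libraries left out, and annotated or assembled reads alone were tried. Ratios and shares were compared by exact permutation (scipy 1.17.1). Scripts were tested on simulated data. Named are the TPS genes, listed genes where the list or Rubisco is described, neighbours, and the 2 genes with the highest r for each TPS gene. The members and lists were chosen with earlier results of these data known. The p-values measure the spread between libraries, and per the methods a replication was a pair of pots, while the grouping of ground seedlings into RNA samples is stated as by weight with no further detail.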

Additional observations from a re-analysis of the deposited data

Results flagged for a closer look

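The estimated change with G2 was more positive with salt than without for both TPS genes, but no interaction was called. For *Glyur000018s00003759* the S + G2 libraries (37.5 to 64.2 CPM) all lay above the S libraries (26.7 to 33.7 CPM), as in 5.2% of genes. Its CK + G2 libraries (37.6 to 43.5 CPM) all lay below its CK libraries (47.1 to 55.1 CPM), as in 5.25% of genes. Its interaction was 0.93 on the log2 scale, with a limma unadjusted p of 0.00337 and an adjusted p of 0.548. For *Glyur000231s00022077* the interaction was 1.94, with an unadjusted p of 0.0102 and an adjusted p of 0.631. The S + G2 and S libraries of *Glyur000231s00022077* overlapped. Neither gene passed the correction over all genes, and 6.72% of all genes had an unadjusted p under 0.05. Both genes were listed on S vs. CK, and *Glyur000018s00003759* also on S + G2 vs. S, contrasts that enter these values. With each of the 12 libraries left out in turn the values ran from 0.72 to 1.10 for *Glyur000018s00003759* (limma adjusted p = 0.372 to 0.984) and from 1.53 to 2.53 for *Glyur000231s00022077* (adjusted p = 0.135 to 0.999), with the value of 2.53 reached without S + G2 replicate 3.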

How the results depend on the processing

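Of 304 alternative values for the fold changes of the TPS genes, 269 kept their direction and their side of an adjusted p of 0.05. Most belong to comparisons without a call, where staying above 0.05 says little. The S vs. CK call of *Glyur000018s00003759* was kept in 0 of 6 fits with a library left out and 5 of 11 other alternatives. That of *Glyur000231s00022077* was kept in 2 of 6 and 10 of 12. For *Glyur000018s00003759* in S vs. CK the call was lost with edgeR (log2 fold change -0.69), TMM scaling (-0.68), median-of-ratios scaling (-0.68), all 12 libraries in the fit (-0.73), the replicate block (-0.73, adjusted p = 0.0730) and the assembled transcripts alone (-0.73), and with single libraries left out the value was -0.82 to -0.65. For *Glyur000231s00022077* in S vs. CK it was lost with all 12 libraries (-1.66) and the annotated transcript alone (-1.86), and the value was -2.01 to -1.36 with single libraries left out. Its CK + G2 vs. CK value became a call with DESeq2 (-1.97) and ran from -2.21 to -1.55 with single libraries left out. Values near 0 changed sign. For *Glyur000018s00003759* in S + G2 vs. CK these were 0.046 with edgeR, 0.045 with DESeq2, 0.0066 with TMM scaling, 0.010 with median-of-ratios scaling and -0.28 to 0.10 with single libraries left out, and in S + G2 vs. CK + G2 the range was -0.0080 to 0.37. For *Glyur000231s00022077* with the annotated transcript alone they were -0.066 in S + G2 vs. CK + G2 and -0.29 in S vs. CK + G2. Its ranges with single libraries left out were -0.32 to 0.68 in S + G2 vs. S, -0.13 to 0.88 in S + G2 vs. CK + G2 and -0.11 to 0.40 in S vs. CK + G2. The causes were not tested, except that fits without a library hold fewer samples.

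Counts of genes called over the whole table moved more. They were 418 for S vs. CK (671 with DESeq2, 37 to 414 with the other alternatives, 167 to 336 with single libraries left out), 1 for S + G2 vs. S (33, 0 to 2, 0 to 9), 13 for CK + G2 vs. CK (98, 0 to 17, 0 to 32), 8 for S + G2 vs. CK + G2 (115, 1 to 7, 1 to 40), 127 for S + G2 vs. CK (467, 37 to 232, 1 to 416), 5 for S vs. CK + G2 (132, 0 to 5, 0 to 282), 1 for the interaction (50, 0 to 3, 0 to 10) and 381 for salt over both G2 levels (916, 15 to 434, 62 to 830). No strong pairing by replicate number was seen, since same-numbered libraries correlated at -0.20 to 0.11 after group means were taken out. Differently numbered libraries were not compared, so weak pairing cannot be judged. The replicate block changed no other call of the TPS genes. The ratio of the TPS genes moved by less than 1 SD, pooled over the compared groups, in all 42 alternatives. For S + G2 against S that SD was 1.12 and the difference 0.61, so a change of sign would also stay within the limit. The limit is therefore a weak check where S + G2 takes part.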
